A study of Xiphophorus maculatus with 32 samples.

Results

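Skin of *Xiphophorus maculatus* (southern platyfish) exposed to the 520–530 nm waveband of green light was compared with skin of unexposed fish by RNA-Seq. The members of this comparison are 4 of the 32 libraries of the study, which are 2 fish exposed to 520–530 nm and the 2 unexposed control fish of the same experiment, chosen by their labels. All were mature males of the line Jp 163 B, 10 to 11 months old, from the 105th generation of sibling inbreeding, so the fish are nearly alike genetically and stand for 1 line and 1 sex. The experiment divided the 500–550 nm region into 5 wavebands of 10 nm, asking whether the response to the broad waveband can be assigned to a narrow one. Each exposed fish was placed alone in the beam of a xenon lamp behind a monochromator and was lit from both sides. After exposure it was rinsed and kept in the dark for some hours before sacrifice. The control fish received no light from the lamp, and sham-handled fish were not analysed here. The paper describes controls sampled from the dark cycle with no handling, and also unexposed fish picked at random from the same flasks. The labels do not say which these controls were, so light, handling and time of sampling cannot be told apart.

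Fish skin is an outer tissue of epithelium, scales, pigment cells, vessels, nerves and immune cells that receives light directly. Clock genes such as cryptochromes and *RORA* set daily rhythms in such peripheral tissues, and in zebrafish many of these tissues can reset their clock by light without the eye. Light can also generate reactive oxygen species, and *HMOX1*, heat shock proteins and DNA damage genes are the usual transcriptional readouts of that kind of stress. These statements are background and were not measured here.

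The 12 libraries of the 10 nm experiment held between 12835091 and 30502623 counts. The 520–530 nm fish were among the shallowest, with 13364102 counts in fish 1 and 12835091 in fish 2, and the controls held 15555908 and 30502623. Of 20218 transcript rows, 16366 had enough counts to be tested. The exposed fish did not match each other closely. At least 2-fold differences between the 2 exposed fish were seen at 2107 transcripts (12.9%), whereas the 2 controls differed by this much at 347 (2.12%). Fish 1 stood farther from the controls, with 3331 transcripts at least 2-fold from the control mean (1577 higher, 1754 lower), than fish 2, with 792 (233 higher, 559 lower). The panel of named genes as used here holds 9 markers of muscle, nerve, leukocytes, endothelium, pituitary and skin epithelium, and no keratin, collagen or pigment cell gene. None of the 9 was at 0 in any of the 4 fish, and their summed level was 233 and 216 CPM (counts scaled to a common library size) in the controls and 176 and 174 CPM in the exposed fish.

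A transcript is called moved in a fish when its log2 CPM lay at least 1 from the mean of the controls and beyond both of them. By this rule 431 transcripts moved in the same direction in both fish, which is 2.63% of those tested. Of these, 155 (0.947%) were higher and 276 (1.69%) were lower after 520–530 nm exposure. A much larger number moved in fish 1 only, namely 2876 (17.6%), of which 1403 were higher and 1473 lower. Only fish 2 showed 337 (2.06%), of which 73 were higher and 264 lower. Another 20 lay at least 1 from the control mean in opposite directions in the 2 fish, and 12702 belonged to none of these classes. For the 20, a place beyond both controls was not required. These counts follow from the rule and are a description without a test.

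The test of the 2 groups was edgeR's quasi-likelihood test in 1 fit of all 12 libraries, with a Benjamini-Hochberg adjusted p-value under 0.05 and a log2 fold change (log2FC) of at least 1 in size required. No transcript passed, with 0 up and 0 down (0% of those tested) and a lowest adjusted p-value of 0.162. An unadjusted p-value under 0.05 was reached by 3593 transcripts (22% of those tested), 2059 higher and 1534 lower. The count depends on the test. The edgeR exact test of the 4 libraries alone called 615 transcripts (3.87%; 358 up, 257 down), and the DESeq2 Wald test called 522 (3.19%; 397 up, 125 down), whereas limma voom with sample quality weights called 0. Of the 615, 299 had moved in both fish and 304 in fish 1 only. Of the 522, 175 had moved in both fish and 342 in fish 1 only. Since classes and tests use the same 4 libraries, these overlaps are a description.

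**Figure D1:**
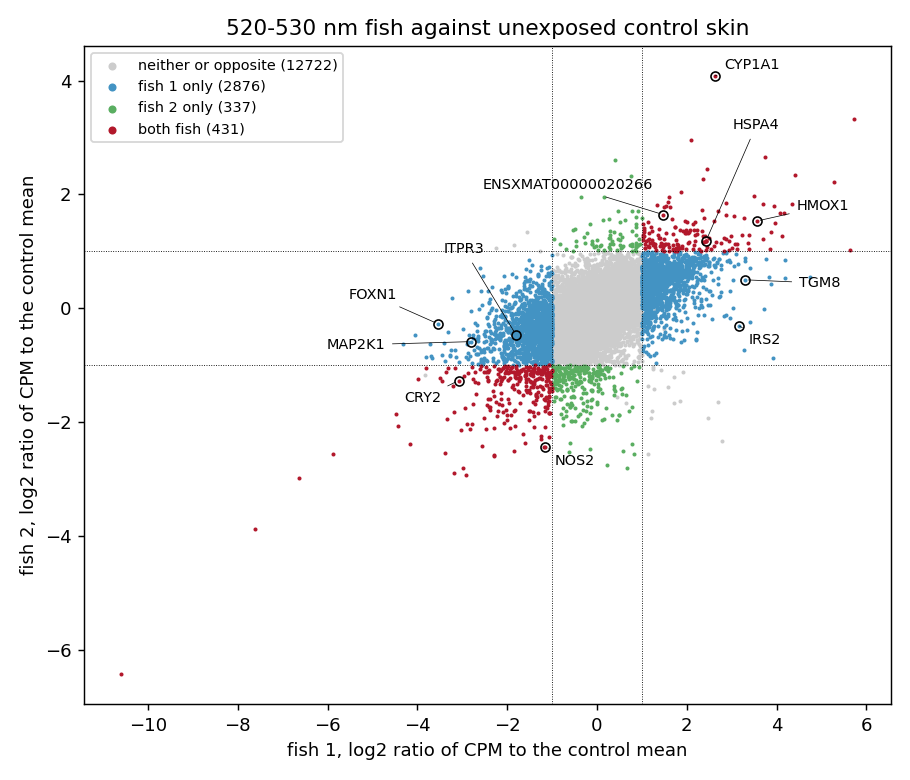
Log2 ratio of CPM to the control mean for each of the 16366 transcripts tested, with 520–530 nm fish 1 on the horizontal axis and fish 2 on the vertical axis. Each point is a transcript, dotted lines mark a 2-fold difference, and circled points are named genes. The cloud is wider along the axis of fish 1, where 2876 transcripts moved in that fish only against 337 in fish 2 only.

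The named genes are 59 transcripts of the study's gene panel and 25 coding sequence rows that carry a gene name, of which 77 in all could be tested. The study chose the panel for light responsive genes from its earlier work, so counts over it do not stand for all genes. Of the 77, 4 were higher in both fish (*HMOX1*, *HSPA4*, *CYP1A1* and the panel transcript ENSXMAT00000020266) and 2 were lower in both (*NOS2* and *CRY2*). Another 23 moved in fish 1 only, and 4 in fish 2 only, and 44 did not move. Over all transcripts tested the shares were 0.947% higher and 1.69% lower in both fish, 17.6% in fish 1 only and 2.06% in fish 2 only. None of the 77 passed the quasi-likelihood test, and 11 higher and 8 lower ones had an unadjusted p-value under 0.05. Of all transcripts tested, 22% had such a p-value.

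Among the 4 stress genes of the panel, the pair that was higher in both fish encodes protective proteins. The coding sequence rows *HSP90AB1*, *GPX6*, *GSTM3* and *OXR1*, also of chaperone or antioxidant function, are counted apart from these and did not move. *HMOX1* encodes heme oxygenase 1, which degrades heme and is induced by oxidants. Its level was 9.00 and 9.17 CPM in the controls, 108 CPM in fish 1 and 26.5 CPM in fish 2. Both exposed fish lay well above the closely matched controls, and fish 1 was the higher. The fitted log2FC was 2.89 ± 0.73 (SE, n = 2 and 2; adjusted p = 0.162 in the edgeR quasi-likelihood test, 0.003 in the edgeR exact test and 0.002 in DESeq2).

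*HSPA4*, a chaperone of the Hsp110 family, was at 15.1 and 14.6 CPM in the controls, 80.2 CPM in fish 1 and 33.8 CPM in fish 2. The order of the fish was as for *HMOX1*, with no overlap between the groups. The fitted log2FC was 1.94 ± 0.43 (SE; adjusted p = 0.162 in the quasi-likelihood test, 0.004 in the exact test and 0.002 in DESeq2). The same was not seen for *HSP90AA1*, the inducible cytosolic Hsp90, which was at 26.6 and 22.5 CPM in the controls, 8.00 CPM in fish 1 and 17.1 CPM in fish 2. It counted as lower in fish 1 only.

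*NOS2* encodes the inducible nitric oxide synthase and was near the limit of detection. It was at 0.85 and 1.11 CPM in the controls and at 0.37 and 0.08 CPM in the exposed fish. These are 47 counts in the controls together and 6 in the exposed fish, and the ratio of exposed to control level was 0.225 (95% exact interval 0.0785 to 0.527, counting error only). The fitted log2FC was -2.08 ± 0.89 (SE; adjusted p = 0.215 in the quasi-likelihood test and 0.054 in the exact test).

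*CYP1A1*, a cytochrome P450 that oxidizes polycyclic aromatic compounds and is a classic target of the aryl hydrocarbon receptor, was almost absent from control skin. It was at 0.13 and 0.03 CPM in the controls, from 2 and 1 counts, and at 1.11 and 3.27 CPM in the exposed fish, from 15 and 41 counts. Fish 2 was the higher here, unlike for *HMOX1* and *HSPA4*. The ratio of levels was 32.9 (95% exact interval 10.7 to 164, counting error only), and the fitted log2FC of 4.86 ± 1.66 (SE) had an adjusted p of 0.173 in the quasi-likelihood test.

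Of the clock genes described here, those that moved were lower. *CRY2*, a cryptochrome that represses the core clock activators, was at 3.91 and 3.01 CPM in the controls, 0.30 CPM in fish 1 and 1.35 CPM in fish 2. Its fitted log2FC was -2.07 ± 0.56 (SE; adjusted p = 0.162 in the quasi-likelihood test and 0.043 in the exact test). *RORA*, a nuclear receptor that activates clock genes, was at 5.48 and 6.52 CPM in the controls and at 2.59 and 3.03 CPM in the exposed fish. It narrowly missed the rule, as its log2 ratio to the control mean was -1.17 in fish 1 and -0.95 in fish 2. Its fitted log2FC was -1.1 ± 0.25 (SE; adjusted p = 0.162 in the quasi-likelihood test, 0.048 in the exact test and 0.022 in DESeq2).

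The other 2 clock genes of the panel did not move. The study's gene lists for this waveband include *BHLHE40*, and also *ARNTL*, *CLOCK*, *CRY1*, *PER1* and *PER3*, which are not described here. *BHLHE40*, a light responsive repressor of the clock, was at 270.1 and 326 CPM in the controls and at 188 and 243 CPM in the exposed fish, and both exposed fish lay below both controls by less than 2-fold. *NR1D4*, a nuclear receptor of the Rev-erb family, was at 21.5 and 8.42 CPM in the controls and at 8.52 and 10.8 CPM in the exposed fish, so the groups overlapped.

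ENSXMAT00000020266, 1 of 10 housekeeping transcripts of the panel, whose clone name could not be read with certainty, moved in both fish with log2 ratios to the control mean of 1.48 in fish 1 and 1.65 in fish 2. It was at 3.06 and 2.36 CPM in the controls and at 7.71 and 8.68 CPM in the exposed fish. The fitted log2FC was 1.61 ± 0.25 (SE; adjusted p = 0.162 in the quasi-likelihood test, 0.001 in the exact test). Of the other 9 housekeepers, SI_DKEY-1C7.1 and *PCP4* were lower in fish 1 only and 7 did not move. SI_DKEY-1C7.1 was at 12.8 and 12.2 CPM in the controls, 4.30 CPM in fish 1 and 8.28 CPM in fish 2. The fitted log2FC of *PCP4* was -0.56.

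**Figure D2:**
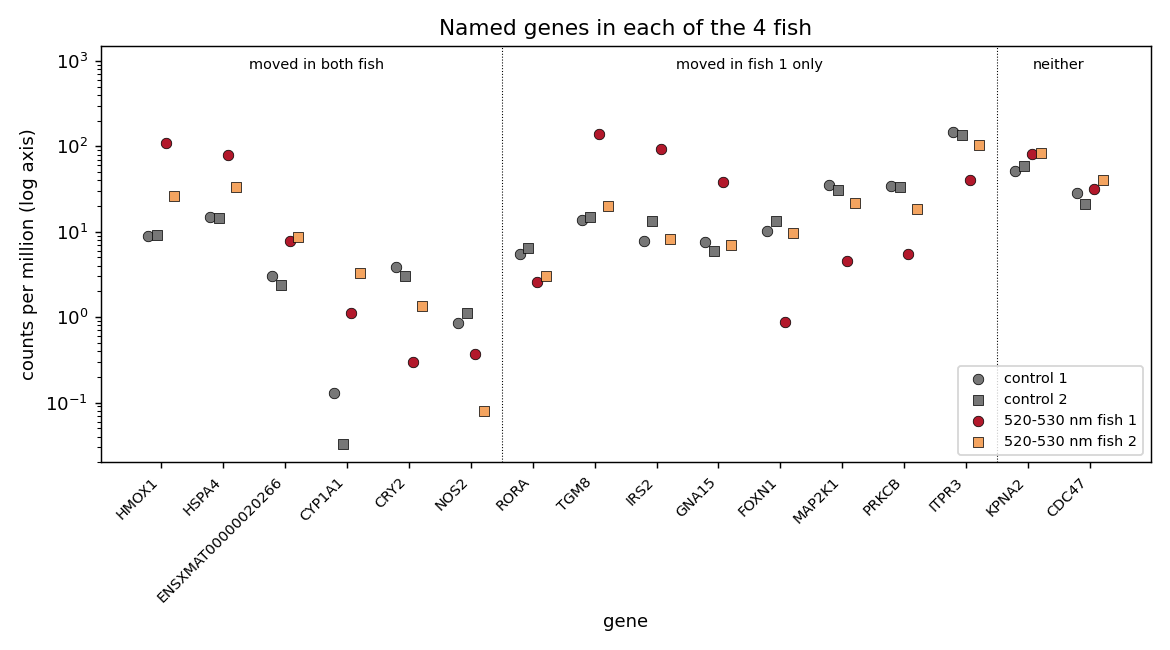
CPM of 16 named genes in each of the 4 fish on a log axis, with controls in grey and 520–530 nm fish in red and orange. The left group moved in both fish, the middle group in fish 1 only, where fish 2 sits close to the controls for *TGM8*, *IRS2* and *FOXN1*, and the right group holds 2 genes of mitosis and replication that did not move.

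The transcripts with the largest fitted differences among those that moved in both fish have no name in the sources used here. ENSXMAT00000019314 was at 0.78 and 0.52 CPM in the controls, 40.3 CPM in fish 1 and 7.57 CPM in fish 2 (log2FC 5.24 ± 1.1, SE). ENSXMAT00000012225 rested almost wholly on fish 1, with 2 and 0 counts in the controls, 117 counts in fish 1 and 3 in fish 2 (log2FC 6.4 ± 2.48, SE). It reached the mean of 1 CPM required for this choice only through fish 1, at 8.67 CPM against 0.24 CPM in fish 2. Of the lower ones, ENSXMAT00000018048 was abundant in both controls, at 479 and 3163 CPM, and was at 0.67 and 14.2 CPM in the exposed fish (log2FC -7.95 ± 1.89, SE). ENSXMAT00000017917 was at 312 and 858 CPM in the controls and at 2.52 and 35.3 CPM in the exposed fish (log2FC -4.96 ± 1.52, SE). For the lower pair the controls themselves differed more than 2-fold. Against the mean of the other 10 nm wavebands all 4 differences were smaller in size. The log2FC was then 1.17 for ENSXMAT00000019314, 1.65 for ENSXMAT00000012225, -1.85 for ENSXMAT00000018048 and -0.55 for ENSXMAT00000017917.

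The 431 transcripts that moved in both fish usually did so more in fish 1. Among the 155 higher ones the median log2 ratio was 1.98 in fish 1 and 1.23 in fish 2, and fish 1 had the larger ratio at 127. Among the 276 lower ones the medians were -1.71 and -1.27, and fish 1 was farther away at 202. A 4-fold difference in both fish was reached by 8 higher and 20 lower transcripts. Many members lay close to the rule's limit, since 121 had a smaller ratio between 1 and 1.1 in size, and 141 transcripts with one fish at least 1 lay just outside, with a smaller ratio between 0.9 and 1.

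The median level over the 4 fish was 9.53 CPM for the higher members, 3.14 CPM for the lower members and 16.2 CPM for all transcripts tested. This level includes the exposed fish that chose the members, which raises it for the higher ones and lowers it for the lower ones. It therefore does not compare the abundance of the 2 lists in control skin. Summed over the 155 higher members, the level was 12035 and 7911 CPM in the controls and 31020 and 25341 CPM in the exposed fish. The 276 lower members summed to 9124 and 13337 CPM in the controls and to 2509 and 3416 CPM in the exposed fish. The median gap between the nearest exposed fish and the nearest control was 0.98 on the log2 scale for the higher members and 1.05 for the lower ones. In whole skin, fewer cells of a type and less RNA per cell cannot be told apart.

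Of 12 signalling genes, the largest list of the panel, 8 moved in fish 1 only, 4 higher and 4 lower, where 17.6% of all transcripts tested were in that class. *IRS2*, an adaptor of the insulin receptor, was at 7.76 and 13.4 CPM in the controls, 92.8 CPM in fish 1 and 8.21 CPM in fish 2. *GNA15*, a Gq class G protein subunit, was at 7.63 and 6.0 CPM in the controls, 37.9 CPM in fish 1 and 7.09 CPM in fish 2. Fish 2 lay within the range of the controls in each case. *CREB5*, a transcription factor of the cAMP response element family, was at 1.56 and 1.70 CPM in the controls, 5.11 CPM in fish 1 and 1.51 CPM in fish 2. *YWHAQ*, a 14-3-3 adaptor protein, was at 209 and 211 CPM in the controls, 577 CPM in fish 1 and 309 CPM in fish 2, so that fish 2 lay above both controls by less than 2-fold.

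The lower ones were *MAP2K1*, *PRKCB*, *PRKCA* and *ITPR3*. *MAP2K1* encodes the kinase MEK1 and was at 34.8 and 31.1 CPM in the controls, 4.59 CPM in fish 1 and 21.9 CPM in fish 2. *PRKCB*, a conventional protein kinase C, was at 34.5 and 33.1 CPM in the controls, 5.56 CPM in fish 1 and 18.2 CPM in fish 2. *PRKCA*, another such kinase, was at 39.1 and 36.4 CPM in the controls, 13.3 CPM in fish 1 and 29.4 CPM in fish 2. *ITPR3*, a calcium channel of the endoplasmic reticulum that opens on inositol trisphosphate, was at 148 and 136 CPM in the controls, 40.5 CPM in fish 1 and 103 CPM in fish 2. In all 4 genes fish 2 also lay below both controls, by less than 2-fold. A separate coding sequence row named *PRKCB* had 0 CPM in fish 1 and 0.80 CPM in fish 2, against 0.59 and 0.66 CPM in the controls. The median log2FC over the 12 signalling genes was -0.21, against -0.02 over all transcripts tested, and the lowest adjusted p among them was 0.174.

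In the matrix, cytoskeleton and muscle list, 2 of 7 moved in fish 1 only, where 17.6% of all transcripts tested were in that class. *TGM8*, a transglutaminase, was at 13.7 and 14.8 CPM in the controls, 141 CPM in fish 1 and 20.2 CPM in fish 2 (log2FC 2.49 ± 1.09, SE; adjusted p = 0.224 in the quasi-likelihood test). *WNT5A*, a secreted ligand of noncanonical Wnt signalling, was at 56.9 and 42.1 CPM in the controls, 23.0 CPM in fish 1 and 43.4 CPM in fish 2, where fish 2 lay between the controls.

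*FOXN1*, which in mammals drives differentiation of skin epithelium and thymus and is the only epithelial marker here, was at 10.1 and 13.3 CPM in the controls, 0.89 CPM in fish 1 and 9.56 CPM in fish 2. *SYBU*, encoding the axonal transport protein syntabulin, was at 0.98 and 1.77 CPM in the controls, 6.82 CPM in fish 1 and 2.39 CPM in fish 2. *DSCAML1*, a neural adhesion molecule, was at 13.9 and 15.1 CPM in the controls, 6.97 CPM in fish 1 and 10.0 CPM in fish 2. Markers of nerve thus did not go one way in fish 1, and the 3 of them summed to 15.9 and 17.7 CPM in the controls, 14.1 CPM in fish 1 and 13.4 CPM in fish 2. The part of cell composition in these differences was not tested.

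Of 8 DNA damage genes, *CDKN1A* and *GADD45A* were higher in fish 1 only, where 8.57% of all transcripts tested were in that class. *CDKN1A*, the p21 inhibitor of cyclin dependent kinases, was at 3.0 and 3.15 CPM in the controls, 13.2 CPM in fish 1 and 5.02 CPM in fish 2 (log2FC 1.57 ± 0.57, SE; adjusted p = 0.181 in the quasi-likelihood test). *GADD45A*, a stress sensor of the p53 pathway, was at 8.80 and 11.5 CPM in the controls, 21.8 CPM in fish 1 and 9.80 CPM in fish 2. The other fish 1 genes were *ENOX1*, an oxidase of the cell surface, at 2.67 and 1.11 CPM in the controls and 0.37 CPM in fish 1, *STAT4*, a transcription factor of cytokine signalling, at 7.69 and 11.2 CPM in the controls and 3.48 CPM in fish 1, and the calreticulin-like CALR3_1of2, at 26.5 and 30.3 CPM in the controls and 68.0 CPM in fish 1. Each of the 3 was nearer to the controls in fish 2, at 1.12, 7.17 and 41.4 CPM in that order.

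Fish 2 alone moved for 4 named genes. *APEX2*, an endonuclease of base excision repair, was at 0.65 and 0.98 CPM in the controls, 1.56 CPM in fish 1 and 1.83 CPM in fish 2, so both exposed fish were above the controls and only fish 2 passed 2-fold. *KLHL38*, a kelch-like gene, was at 2.87 and 4.78 CPM in the controls, 6.45 CPM in fish 1 and 1.04 CPM in fish 2. *MYL2B*, a myosin light chain and the muscle marker, was at 94.7 and 57.4 CPM in the controls, 61.7 CPM in fish 1 and 35.5 CPM in fish 2. *RAB3B*, a GTPase of regulated secretion, was at 1.17 and 1.44 CPM in the controls, 1.04 CPM in fish 1 and 0.48 CPM in fish 2.

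Genes of mitosis and DNA replication showed no move in either fish. None of the 6 measured reached 2-fold, their median log2FC was 0.28, and their summed level was 117 CPM in each control, 145 CPM in fish 1 and 167 CPM in fish 2. *CDC47*, a subunit of the replicative helicase, was at 28.6 and 21.4 CPM in the controls and at 31.9 and 40.2 CPM in the exposed fish. *KPNA2*, an importin that carries proteins into the nucleus, was at 51.2 and 59.2 CPM in the controls and at 81.7 and 83.9 CPM in the exposed fish. Both genes were above both controls in both fish, by less than 2-fold. With 2 fish per group such differences are not shown to be absent or present. The remaining members that did not move comprised 4 signalling genes, 3 of matrix and cytoskeleton, 5 of DNA damage, 2 of metabolism, 2 of clock function, *RAVER1* and *TSHB*, 7 housekeepers and 13 coding sequence rows.

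The other 10 nm wavebands give a reference that does not use the controls. In the same fit, 520–530 nm was set against the mean of the other 4 wavebands, and no transcript passed (0%), with a lowest adjusted p-value of 0.622 and 703 transcripts at an unadjusted p-value under 0.05. DESeq2 called 23 transcripts (0.141%) in this contrast, 14 of which had moved in both 520–530 nm fish, a class of 2.63% of all transcripts tested. The same exposed fish enter the class and the contrast, so this overlap is a description. Set against 510–520 nm alone and against 530–540 nm alone, the quasi-likelihood test also called 0 transcripts (0%) each, with lowest adjusted p-values of 0.724 and 0.191, and with 872 and 1046 unadjusted p-values under 0.05. Against the other 4 wavebands the median log2FC was 0.38 for the 155 members higher in both fish and -0.57 for the 276 lower ones, smaller than against the controls. Both 520–530 nm fish were above all 8 fish of the other wavebands at 12 of the 155 (7.74%, against 1.22% over all transcripts tested). They were below all 8 at 29 of the 276 (10.5%, against 1.36% over all transcripts tested). The same exposed fish chose the members, so neither count is a test.

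Most values of the named members fell within the range of the other 10 nm wavebands. *HMOX1* ranged from 11.1 to 59.0 CPM with a median of 29.4 CPM in the 8 other fish, so that fish 2 was near that median and fish 1 above the range. Its log2FC against the other wavebands was 1.11 ± 0.50 (SE). *HSPA4* ranged from 38.0 to 84.9 CPM in those fish, which holds fish 1 and leaves fish 2 below it. *CRY2* ranged from 0.73 to 1.66 CPM, with fish 1 below the range, and *CYP1A1* from 0.00 to 3.38 CPM, with both 520–530 nm fish inside it. ENSXMAT00000020266 ranged from 7.21 to 19.3 CPM, and *NOS2* from 0.06 to 0.87 CPM, also with both fish inside. Each of these genes had an adjusted p of 1.0 in the quasi-likelihood contrast with the other wavebands.

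**Figure D3:**
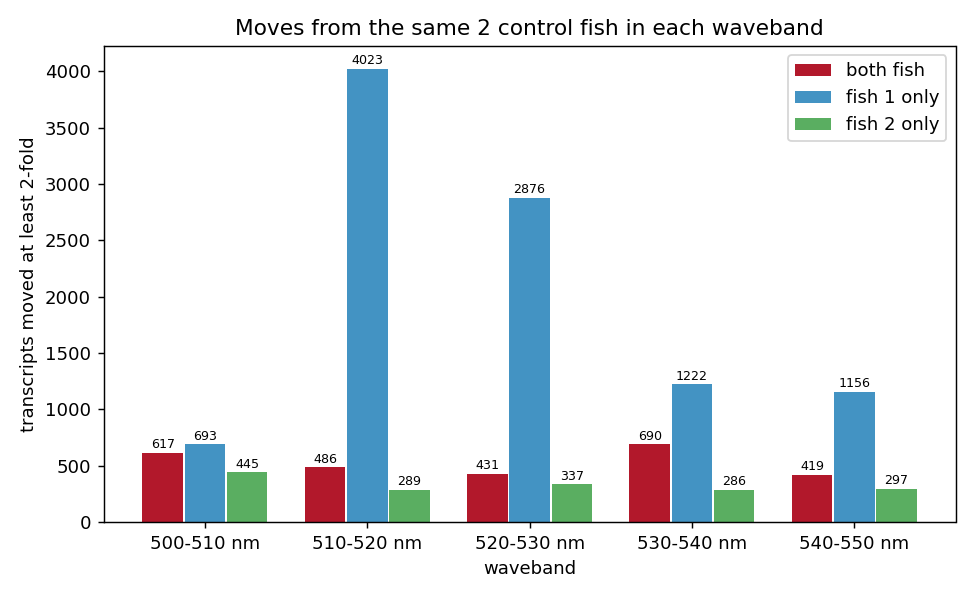
Number of transcripts that moved at least 2-fold from the same 2 control fish in both fish, in fish 1 only or in fish 2 only, for each 10 nm waveband. At 520–530 nm the bars stand at 431, 2876 and 337, and 510–520 nm has the tallest bar, with 4023 in its fish 1 only.

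By the same rule and the same controls, the 500–510 nm fish shared 617 moved transcripts, the 510–520 nm fish 486, the 530–540 nm fish 690 and the 540–550 nm fish 419, beside the 431 of the 520–530 nm fish. The number in fish 1 only was 693, 4023, 1222 and 1156 in that order, beside 2876. Across 16366 transcripts, subtracting fish 2 from fish 1 gave values whose correlation with those of 520–530 nm was -0.02 in the controls. It was 0.62 at 510–520 nm and lower at the other wavebands, with 0.35 at 530–540 nm, 0.25 at 540–550 nm and 0.12 at 500–510 nm, and no pair shares a library in that measure. Transcripts are not independent replicates, and this is a description. The 1403 transcripts higher in 520–530 nm fish 1 only had a median log2 ratio of 1.42 in 510–520 nm fish 1 and of 0.44 in 510–520 nm fish 2. The 1473 lower ones had medians of -1.39 and -0.44 in those fish. The ratios share their controls.

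**Figure D4:**
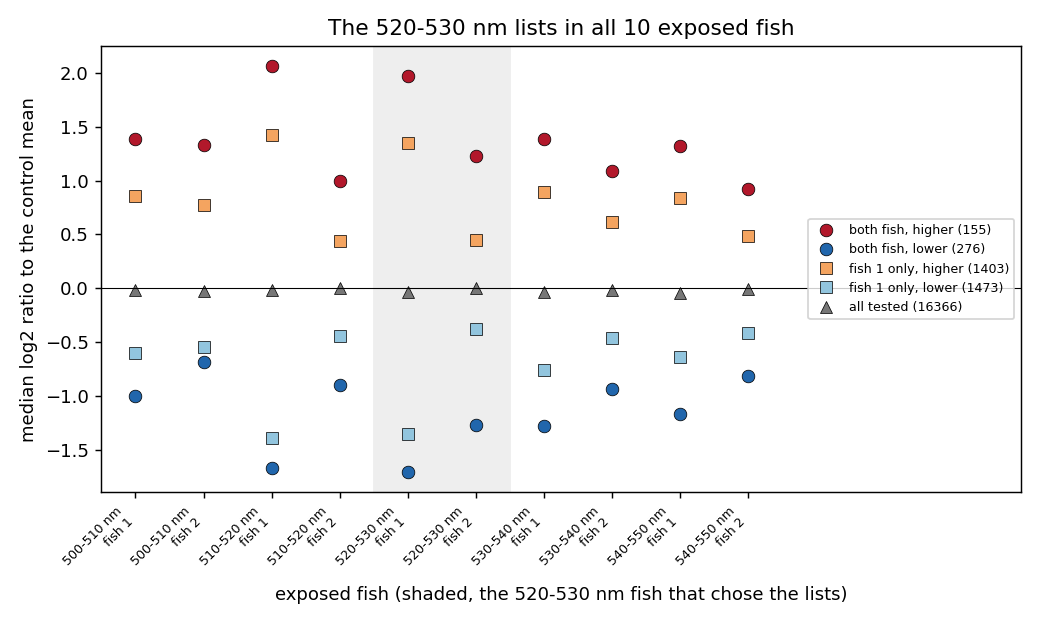
Median log2 ratio to the control mean, in each of the 10 exposed fish, of the transcripts chosen in the 520–530 nm fish (shaded). All fish are set against the same 2 controls. Red points, the 155 higher in both fish, lie between 0.93 and 2.06, and grey points, all 16366 transcripts, lie near 0.

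The 500–550 nm waveband was given to other fish, with other controls, in a separate experiment, and it includes 520–530 nm. Per the study's methods, the broad waveband was scanned through its wavelengths at a similar total dose. Only a part of that dose thus fell within 520–530 nm, so the exposures are not alike. In that experiment 323 of 16291 transcripts were called up (1.98%) and 440 down (2.7%) by the quasi-likelihood test. Of the members higher in both 520–530 nm fish, 154 were tested there, with 3 called up and 5 down, and 77 were higher and 77 lower, with a median log2FC of 0.00. Of the members lower in both, 268 were tested, with 14 called down (5.22%) and 16 up (5.97%), and the median log2FC was 0.08. The directions seen at 520–530 nm were thus not seen over the members as lists in the fish of the broad waveband. A direct test of the 520–530 nm effect against the 500–550 nm effect, in 1 quasi-likelihood fit of 26 libraries, passed at 1503 of 16838 transcripts (8.93%). Of the 260 tested transcripts that were lower in 520–530 nm fish 2 only, 31 were called up after 500–550 nm (11.9%) and 5 down. Of the 70 that were higher in fish 2 only, 6 were called up (8.57%) and 2 down, so more up than down calls were seen in both classes.

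Single named members differed in this respect. *HSPA4* was at 35.8 and 40.3 CPM in the controls of that experiment and at 71.8 and 73.3 CPM after 500–550 nm, with a log2FC of 0.93 ± 0.23 (SE; adjusted p = 0.027 in the quasi-likelihood test), under the required size. *HMOX1* was at 14.4 and 12.6 CPM in those controls and at 28.4 and 23.5 CPM after exposure (log2FC 0.94 ± 0.81, SE; adjusted p = 0.462). ENSXMAT00000020266 rose from 1.67 and 2.48 CPM to 53.6 and 32.6 CPM (log2FC 4.37 ± 0.48, SE; adjusted p = 0.001). *CRY2* was at 0.40 and 0.76 CPM in those controls and at 0.56 and 1.27 CPM after exposure, and *CYP1A1* was at 0.00 and 0.84 CPM and then at 0.07 and 0.36 CPM. *NOS2* was lower than those controls in both 500–550 nm fish, with log2 ratios of -1.42 and -1.19. Its level in those fish, 0.07 and 0.10 CPM, was near the limit of detection.

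The control fish of the 2 experiments differed at some of these genes. When the 520–530 nm fish were set against the 50 nm controls instead, 29 of the 155 higher and 57 of the 276 lower members kept their class. Another 6 of the higher members were then lower in both fish, and 1 of the lower members was then higher in both. Of all 16483 transcripts, 274 were higher and 464 lower in both fish against those controls. The same exposed fish enter both comparisons, so this overlap is a description. *HMOX1*, *CYP1A1* and ENSXMAT00000020266 were again higher in both fish. *HSPA4* was higher in fish 1 only, since those controls, at 34.3 and 38.4 CPM on this scale, were as high as fish 2. *CRY2* reversed in fish 2, which was then higher (log2 ratio 1.21), while fish 1 had a log2 ratio of -0.63. The 50 nm controls were at 0.38 and 0.72 CPM of *CRY2*, against 3.91 and 3.01 CPM in the controls of the 10 nm experiment. *NOS2* was lower in fish 2 only, with log2 ratios of 0.01 in fish 1 and -1.30 in fish 2. Of the genes that moved in 1 fish, *CDKN1A* did not move against the 50 nm controls (0.70 and -0.67), and *KLHL38* was higher in both fish (4.13 and 1.62). Of the genes that had not moved, *KPNA2* was then lower in both fish (-1.11 and -1.07), with those controls at 145 and 219 CPM. *CDC47* (-1.40 and -1.07) and *RAVER1* (-1.40 and -2.12) were then also lower in both fish. The coding sequence rows *AP1M1* (2.27 and 1.40) and *CUL4B* (1.99 and 1.73), which had not moved either, were then higher in both fish. The experiment and the control fish cannot be told apart in this comparison.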

How the data were processed

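Per the study's methods, libraries were made from RNA isolated from skin with an Illumina TruSeq mRNA kit. After read trimming and filtering, the authors used GSNAP for mapping against cDNA sequences of Ensembl, and the deposited values are raw counts per transcript with no normalization. Per the study's methods, mapped reads were counted with xEpress. Its settings for reads of near-identical transcripts are not given in the sources used here, so such transcripts are uncertain. The table has 32 columns, 28 of them distinct. The control libraries taken as distinct here were those of the 10 nm and 50 nm experiments. The columns of the fluorescent light controls were left out. The authors also removed genes that changed in sham fish, a step not applied here.

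Counts were filtered with filterByExpr, scaled by TMM and fitted with edgeR 4.0.16 in R 4.3.3 (quasi-likelihood test, 12 libraries, Benjamini-Hochberg adjustment). SE is the log2FC divided by the square root of F. CPM use TMM library sizes, and log2 CPM a prior count of 2. Intervals for ratios of low counts are exact binomial at 95%. DESeq2 1.42.0 and limma 3.58.1 were alternatives, beside the edgeR exact test, a fit of the 2 groups alone, no filter, RLE size factors, a replicate block, other controls, other limits of the rule and each fish left out. The fits were tried on simulated data in which 200 transcripts had a log2 change of 2, alike in both exposed fish. The quasi-likelihood test recovered 182 of them and called 9 others. All simulated libraries shared 1 trend of spread, so this trial does not cover exposed fish as unlike each other as the real pair. Per the study's methods, each fish was held and exposed on its own, so p-values measure the spread between individual fish.

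Members and lists were chosen with earlier results of these data known. One item of the panel is not reported here. Names come from the 59 other panel identifiers that could be read from page images of the study's probe list, where single digits may be misread, and from 25 named rows. Values are given for the named genes that moved in 1 or both fish or had a log2FC of at least 1 in size, and for the 2 highest and 2 lowest unnamed log2FC among transcripts that moved in both fish with a mean of at least 1 CPM. Genes outside this rule (*BHLHE40*, *NR1D4*, *CDC47*, *KPNA2*, *RAVER1*, *AP1M1*, *CUL4B* and those under other observations) were chosen with the values in view. So were the comparison with 500–550 nm and the fits without 510–520 nm. No coordinates or sequences are given, because the annotation at hand does not carry the identifiers of the counts.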

Additional observations from a re-analysis of the deposited data

Results flagged for a closer look

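The effect of 520–530 nm, measured against its own controls, was tested against the effect of 500–550 nm, measured against the controls of that experiment, in 1 edgeR quasi-likelihood fit of 26 libraries. This difference passed at 1503 of 16838 transcripts (8.93%; 851 up, 652 down), where a log2FC of at least 1 in size was also required. By the adjusted p-value of this test alone, 10 of the 77 named genes were under 0.05. They were 3 of the 33 that moved in at least 1 of the 520–530 nm fish and 7 of the 44 that did not. LDHB_1of2 and *FAM102BB* among them were under the required size, so this count and the 8.93% follow different rules. The share of all transcripts under the adjusted p-value alone is not given. The 10 of 77 therefore cannot be set against it and are no result about the named genes as a set. ENSXMAT00000020266 was higher after both exposures, and less so after 520–530 nm (difference in log2FC -2.78, adjusted p = 0.005). *KLHL38* had a difference of -6.12 (adjusted p = 0.015), with 6.45 and 1.04 CPM after 520–530 nm against 20.5 and 17.4 CPM after 500–550 nm. Its controls were at 2.87 and 4.78 CPM in the 10 nm experiment and at 0.35 and 0.21 CPM in the other, and against the latter both 520–530 nm fish were higher. *CDKN1A* had a difference of 2.89 (adjusted p = 0.017). Both 520–530 nm fish were above their controls in *CDKN1A*, and both 500–550 nm fish, at 2.53 and 4.42 CPM, were below theirs, at 6.05 and 11.9 CPM. The 10 nm controls were at 3.0 and 3.15 CPM, and *CDKN1A* did not move in the 520–530 nm fish when they were set against the 50 nm controls. Of the genes that had not moved, the difference was 2.58 for *RAVER1* (adjusted p = 0.009), 2.56 for *KPNA2* (0.022), 1.96 for *GPX6* (0.033), 1.21 for *INTS9* (0.003), -2.58 for *PFKFB1* (0.035), -0.94 for LDHB_1of2 (0.016) and -0.73 for *FAM102BB* (0.027).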

How the results depend on the processing

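The count of 0 called transcripts against the controls held under 11 of 13 alternatives, each fish left out included (0 to 0), and became 615 with the exact test and 522 with DESeq2. Against the other wavebands it held under 6 of 7, with 23 by DESeq2. Replicate numbers join different animals. The correlation of fish differences with 520–530 nm was -0.02 for the controls and 0.12 to 0.62 for the other wavebands, and with the replicate block 0 transcripts were called in either contrast, with lowest adjusted p-values of 0.057 and 0.592. Without the 510–520 nm fish 0 were called (lowest adjusted p 0.059 and 0.075). The classes depended on the limit and on abundance. Both higher, both lower, fish 1 only and fish 2 only counted 804, 1050, 4951 and 923 at 1.5-fold, 8, 20, 508 and 27 at 4-fold, and 75, 79, 1549 and 62 at a mean of at least 10 CPM. With the 50 nm controls the first 2 and the last became 274, 464 and 849, and without the filter on low counts fish 2 only became 582. Leaving out either control gave 179 to 228 higher and 319 to 359 lower in both fish, but membership changed. Of the 155 higher members, 111 kept their class without control 1 and 117 without control 2. Of the 276 lower members, 234 and 205 did so in that order. *HMOX1*, *HSPA4*, *RORA* and ENSXMAT00000020266 passed the test with 2 of 13 alternatives, the exact test and DESeq2, and *CRY2* and *CYP1A1* with the exact test alone. DESeq2 gave no adjusted p for those 2. With either 520–530 nm fish left out, a log2FC changed sign for 6 genes, and without fish 1 or fish 2 it was -0.11 or 1.63 for *CREB5*, -0.053 or 1.1 for *GADD45A*, -0.38 or 3.12 for *IRS2*, 0.06 or -1.61 for *PCP4*, 0.35 or -6.38 for the *PRKCB* coding sequence row and -1.89 or 0.73 for *KLHL38*. *KLHL38* was also at 0.030 with the replicate block, 0.87 with all controls and 0.39 without control 2, beside -0.04.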

Other observations

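Some named genes shifted by less than 2-fold and to a similar degree in both 520–530 nm fish. They were chosen after their values were seen and are given as values. *SORT1*, encoding the sorting receptor sortilin, was at 7.76 and 8.12 CPM in the controls and at 4.00 and 4.30 CPM in the exposed fish (log2FC -0.94 ± 0.32, SE). *PRKDC*, the catalytic subunit of the DNA-dependent protein kinase, was at 11.8 and 10.9 CPM in the controls and at 6.45 and 5.90 CPM in the exposed fish (log2FC -0.88 ± 0.35, SE). *INTS9*, a subunit of the Integrator complex, was at 17.7 and 18.9 CPM in the controls and at 27.2 and 24.1 CPM in the exposed fish (log2FC 0.48 ± 0.15, SE). *TMEM204*, an endothelial membrane protein, was at 34.2 and 37.1 CPM in the controls and at 45.5 and 43.5 CPM in the exposed fish. Of the 77 named transcripts tested, only *TMEM204* had both 520–530 nm fish outside the range of the 8 fish of the other 10 nm wavebands. For *TMEM204* that range ended at 38.5 CPM. Over all transcripts tested, both fish were above all 8 at 1.22% and below all 8 at 1.36%.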
